A study of Mus musculus with 8 samples.

Results

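The 10 genes described here encode carriers that take sugars, short peptides, amino acids and phosphate across the membrane of intestinal absorptive cells. They were picked by gene name for what their proteins carry, with earlier results of these data known, and are 10 of the 55114 genes counted in RNA of mouse intestinal crypts. All 10 were abundant enough to be tested, among 16109 genes that passed the filter on low counts. The crypts came from 4 mice with a constitutive deletion of Mex3a (KO) and from 4 littermate controls (WT, labelled Ctrl), all C57BL/6 and 8 weeks old. The deletion takes out the start of the gene in every tissue, so it is not limited to the epithelium. Crypts were released with EDTA and strained, and the segment of intestine is not named in the labels. The question put to these genes is whether transporter transcripts of the absorptive lineage differ between crypts with and without Mex3a, an RNA-binding protein of intestinal stem cells.

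Absorptive enterocytes arise from stem cells at the crypt base, move up to the villus and there make large amounts of nutrient carriers. Sodium- or proton-coupled carriers of the brush border, and some facilitative carriers and exchangers there, bring nutrients into the cell. Other facilitative carriers and exchangers, on the side facing the blood, pass them on. Carriers differ in where along the intestine they are made: fructose and glucose carriers are typical of the proximal small intestine, and the sodium-phosphate carrier Slc34a2 is, in mice, typical of the ileum.

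Between 20324184 and 30654105 reads were counted on genes per mouse. Mex3a had 236 to 328 counts in WT and 6 to 28 counts in KO, so the libraries matched their labels. In both genotypes, the Y-linked gene Ddx3y was detected in replicates 1 and 2 and Xist was high in replicates 3 and 4. The stem cell gene Olfm4 was at 3895 ± 408 CPM (counts scaled to a common library size) in WT (SD, n = 4), while the colonic genes Car1 and Aqp8 were too low to test and Hoxb13 had no counts in any mouse.

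Windows before the RefSeq transcription start are shown for 3 genes. Slc34a2 is shown because it had the largest difference between the genotypes. Slc7a9 and Slc3a1 are shown because their proteins form the chains of a single heterodimer, so that the starts of a pair of partners can be compared. The windows are chr5:53049103-53049351 for Slc34a2, chr7:35448842-35449036 for Slc7a9 and chr17:85028097-85028346 for Slc3a1, all on the plus strand of GRCm38.p6. The 250 bases before the start were cut where an annotated exon of the same gene begins, by 1 base in Slc34a2 and 55 bases in Slc7a9. The windows of Slc34a2 and Slc7a9 lie within the deposited gene spans, which begin farther upstream. Capitals mark the letters of motifs searched on both strands.
Slc34a2: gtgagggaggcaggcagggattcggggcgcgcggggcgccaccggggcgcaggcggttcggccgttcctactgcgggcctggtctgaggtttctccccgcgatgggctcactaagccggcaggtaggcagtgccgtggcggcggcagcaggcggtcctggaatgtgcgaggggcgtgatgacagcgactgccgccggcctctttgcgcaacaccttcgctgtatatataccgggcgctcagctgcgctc
Slc7a9: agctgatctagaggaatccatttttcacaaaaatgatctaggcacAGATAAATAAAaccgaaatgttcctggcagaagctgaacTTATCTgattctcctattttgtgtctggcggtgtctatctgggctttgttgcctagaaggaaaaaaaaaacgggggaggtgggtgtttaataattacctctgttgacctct
Slc3a1: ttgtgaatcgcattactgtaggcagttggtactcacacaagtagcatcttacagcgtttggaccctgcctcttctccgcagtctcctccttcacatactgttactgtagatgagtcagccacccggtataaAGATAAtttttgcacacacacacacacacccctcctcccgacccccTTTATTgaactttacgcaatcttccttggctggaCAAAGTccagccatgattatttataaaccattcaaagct

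The GATA letters AGATAA and the CDX letters TTTATT were found in the windows of Slc7a9 and Slc3a1 and in no other of the 10 genes. In Slc7a9 the CDX letters lie on the minus strand and share a base with the GATA letters that begin 205 bases before the start, and a further GATA match on the minus strand begins 166 bases before it. In Slc3a1 the GATA, CDX and HNF4 (CAAAGT) letters begin 119, 73 and 39 bases before the start. A second annotated start of Slc7a9, downstream of it, had no match in its window. Of 32851 windows of 250 bases in the RefSeq table, AGATAA was in 9.99% and TTTATT in 18.1%. CAAAGT was in 12.6% of all windows and, besides Slc3a1, in those of Slc2a2 and Slc15a1. No match to TTTATG (10.8% of windows), to the MAF letters TGCTGA (16.1%) or to the KLF letters GGGTGTGG (3.2%) was found in any of the 10 genes, and the window of Slc34a2 held none of these motifs. A match describes letters in a window and does not show that a factor binds there.

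Levels can be compared between genes only per gene length, as FPKM (fragments per kilobase of gene and per library size). In WT crypts, Slc5a1 was the most abundant of the 10 at 83.0 ± 24.2 FPKM (SD, n = 4), followed by Slc7a9 at 19.0 ± 5.17. The lowest were Slc34a2 at 4.47 ± 3.84 and Slc2a2 at 3.12 ± 1.88. Slc5a1 and Slc7a9 did not overlap between mice, nor did Slc7a9 (15.2 to 26.6) and the next gene, Slc1a1 (12.1 to 13.9), but every later neighbour in the order overlapped with the next. In KO crypts, Slc5a1 at 148 ± 83.6 and Slc7a9 at 35.6 ± 14.8 stayed in the first places. Slc34a2 stood in place 6 in KO at 15.9 ± 5.15, against place 9 in WT, and Slc1a1 stood in place 8 at 14.5 ± 2.05, against place 3. The KO range of Slc7a9 (21.5 to 54.3) lay above those of Slc1a1 (13.1 to 17.5), Slc2a5 (2.53 to 16.9) and Slc2a2 (1.61 to 17.9). The KO ranges of Slc34a2 and Slc1a1 overlapped, so their order in KO is not separated by the spread between mice.

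**Figure D1:**
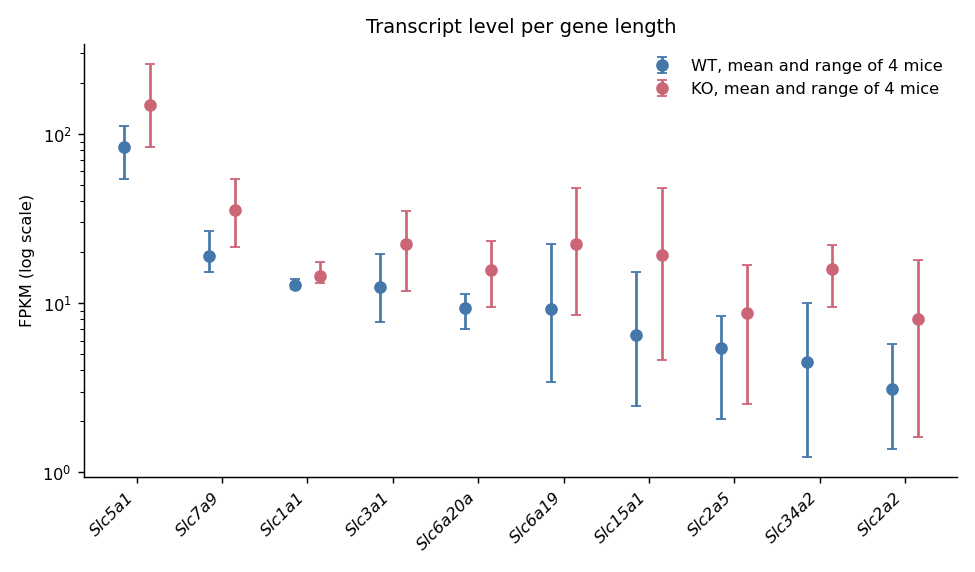
Level of each transporter in FPKM on a log scale, ordered by the WT mean. Points are means and bars the range of 4 mice per genotype. Slc5a1 lies above all others in both genotypes, and in KO the range of Slc7a9 lies above those of Slc1a1, Slc2a5 and Slc2a2.

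Among the sugar carriers, none reached an unadjusted p under 0.05 in KO against WT crypts. Slc5a1 (chr5:33104219-33162870, plus strand, 15 exons), the sodium-glucose cotransporter of the brush border, had 383, 224, 309 and 459 CPM in WT replicates 1 to 4 and 344, 345, 1070 and 677 in KO replicates 1 to 4. The high values were those of KO replicates 3 and 4, while KO replicates 1 and 2 lay inside the WT range. The means were 344 ± 101 and 609 ± 345 CPM (SD, n = 4 each). KO exceeded WT by 0.82 on the log2 scale (SE, the standard error, 0.38, adjusted p = 0.601, edgeR), with an unadjusted p of 0.0549. In a second fit that also held a term for the replicate number, called the blocked fit from here on, the unadjusted p was 0.0420.

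Slc2a2 (chr3:28697903-28731359, plus strand, 11 exons), the facilitative glucose carrier of the basolateral membrane, had 18.5, 7.99, 12.9 and 33.2 CPM in WT replicates 1 to 4 and 9.28, 12.1, 104 and 60.0 in KO replicates 1 to 4. KO replicate 3 was 11.2-fold above KO replicate 1, the widest spread within a genotype among the 10 genes, and the genotypes overlapped. Its fitted log2 fold change was 1.35 (SE 0.75, adjusted p = 0.658, edgeR), and 0.58 without KO replicate 3. Slc2a5 (chr4:150119283-150144169, plus strand, 14 exons), the fructose carrier, showed the same split. Its CPM was 18.0, 7.10, 21.1 and 28.7 in WT replicates 1 to 4 and 10.2, 8.61, 57.6 and 43.1 in KO replicates 1 to 4. Again KO replicates 3 and 4 exceeded every WT mouse and KO replicates 1 and 2 did not, and the log2 fold change of 0.67 (SE 0.63, adjusted p = 0.814, edgeR) was close to its own error. Leaving out WT replicate 2 gave 0.40, and leaving out replicate 3 or 4 of KO gave 0.14 or 0.44. In the mice with Y transcripts alone, the log2 fold changes of Slc2a2 and Slc2a5 were negative, at -0.30 and -0.40.

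The peptide carrier Slc15a1 (chr14:121459621-121505252, minus strand, 23 exons), which takes up short peptides together with protons, had 16.2, 12.1, 24.1 and 75.3 CPM in WT replicates 1 to 4. In KO replicates 1 to 4 it had 22.5, 32.6, 233 and 88.9. Each KO mouse exceeded the WT mouse of the same number, but WT replicate 4 lay above KO replicates 1 and 2. KO exceeded WT by 1.56 on the log2 scale (SE 0.80, adjusted p = 0.634, edgeR), and the unadjusted p of 0.0805 became 0.0308 in the blocked fit. The value depended on single mice, at 0.59 without KO replicate 3 and 2.43 without WT replicate 4.

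Of the 5 amino acid carriers, Slc7a9 and Slc6a20a reached an unadjusted p under 0.05, and none passed adjustment over all genes. Slc7a9 (chr7:35448796-35466036, plus strand, 13 exons) encodes the catalytic chain of the exchanger for cystine and basic amino acids. It had 44.6, 41.0, 47.9 and 71.9 CPM in WT replicates 1 to 4 and 57.6, 70.0, 146 and 109 in KO replicates 1 to 4. Only WT replicate 4 reached into the KO range. The means were 51.4 ± 14.0 and 95.5 ± 40.0 CPM (SD, n = 4 each; exact permutation test, two-sided p = 0.0857). On the log2 scale KO was higher by 0.89 (SE 0.29, adjusted p = 0.518, edgeR), with an unadjusted p of 0.0129.

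Slc3a1 (chr17:85028376-85064236, plus strand, 10 exons) encodes the heavy chain that carries Slc7a9 to the membrane. It had 17.7, 26.3, 25.8 and 44.9 CPM in WT replicates 1 to 4 and 26.7, 34.1, 80.1 and 61.5 in KO replicates 1 to 4. The genotypes overlapped, since WT replicate 4 lay above KO replicates 1 and 2. The log2 fold change of 0.82 (SE 0.37, adjusted p = 0.602, edgeR) was close to that of its partner, and its unadjusted p was 0.0550, or 0.00807 in the blocked fit. Its value is uncertain, because 601 of its 2271 exon bases (26.5%) are shared with Prepl on the opposite strand and the strand setting of the counting is not given in the sources used here. Prepl, a peptidase-like gene, itself had a log2 fold change of 0.08 (adjusted p = 0.830, edgeR).

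Slc6a20a (chr9:123634770-123678885, minus strand, 11 exons), the carrier of proline and other imino acids, had 45.8, 29.0, 31.8 and 46.5 CPM in WT replicates 1 to 4 and 38.8, 43.1, 95.2 and 80.3 in KO replicates 1 to 4. KO replicates 1 and 2 lay within the WT range and KO replicates 3 and 4 above it. On the log2 scale the KO mice were higher by 0.75 (SE 0.30, adjusted p = 0.557, edgeR), with an unadjusted p of 0.0327. The two-sided p of the exact permutation test was 0.171. The edgeR call was lost in each fit that left out replicate 2 or 3 of WT or replicate 3 or 4 of KO, whose unadjusted values lay between 0.0773 and 0.105. It was also lost with limma on log2 FPKM, at 0.0565 and 0.0542 for pseudocounts of 1 and 0.1. Reads may also be split with the near copy Slc6a20b, which was at 0.408 ± 0.304 CPM in WT (SD, n = 4), and with transcripts that overlap the gene, the largest being Gm47171 with 910 counts over all mice against 10026 of Slc6a20a.

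Slc6a19 (chr13:73679745-73704865, minus strand, 12 exons), the sodium-coupled carrier of neutral amino acids, had 27.7, 17.1, 29.2 and 113 CPM in WT replicates 1 to 4 and 42.4, 43.8, 240 and 125 in KO replicates 1 to 4. WT replicate 4 stood far above the other WT mice and close to KO replicate 4. The genotypes differed by 1.27 on the log2 scale (SE 0.71, adjusted p = 0.660, edgeR), and the unadjusted p of 0.106 became 0.0265 in the blocked fit. Without KO replicate 3 the difference was 0.59, and without WT replicate 4 it was 2.19. Slc1a1 (chr19:28835049-28913960, plus strand, 12 exons), the carrier of glutamate and aspartate, varied least between mice. It was at 75.5, 76.0, 86.0 and 79.5 CPM in WT replicates 1 to 4 and at 80.6, 82.0, 108 and 88.7 in KO replicates 1 to 4. Here WT replicate 3 lay above KO replicates 1 and 2. Its log2 fold change of 0.18 (SE 0.10, adjusted p = 0.660, edgeR) was the smallest of the 10, with an unadjusted p of 0.106, or 0.0435 in the blocked fit.

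Slc34a2 (chr5:53038081-53071664, plus strand, 13 exons), the sodium-phosphate cotransporter of the brush border, had the largest difference of the 10. Its CPM was 6.24, 16.8, 16.6 and 50.8 in WT replicates 1 to 4 and 47.7, 75.5, 111 and 86.0 in KO replicates 1 to 4. The genotypes met only between WT replicate 4 and KO replicate 1. The means were 22.6 ± 19.4 and 79.9 ± 26.0 CPM (SD, n = 4 each; exact permutation test, two-sided p = 0.0571, where 0.0286 is the smallest p these groups allow). KO was higher by 1.82 on the log2 scale (SE 0.54, adjusted p = 0.518, edgeR), or 3.53-fold, with an unadjusted p of 0.00765. The blocked fit gave 2.13 (SE 0.35, adjusted p = 0.166, edgeR), and leaving out WT replicate 4 gave 2.60. Slc34a2 also differed among the mice carrying Y transcripts, with a log2 fold change of 2.43 in those mice and 1.53 in the mice with Xist.

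**Figure D2:**
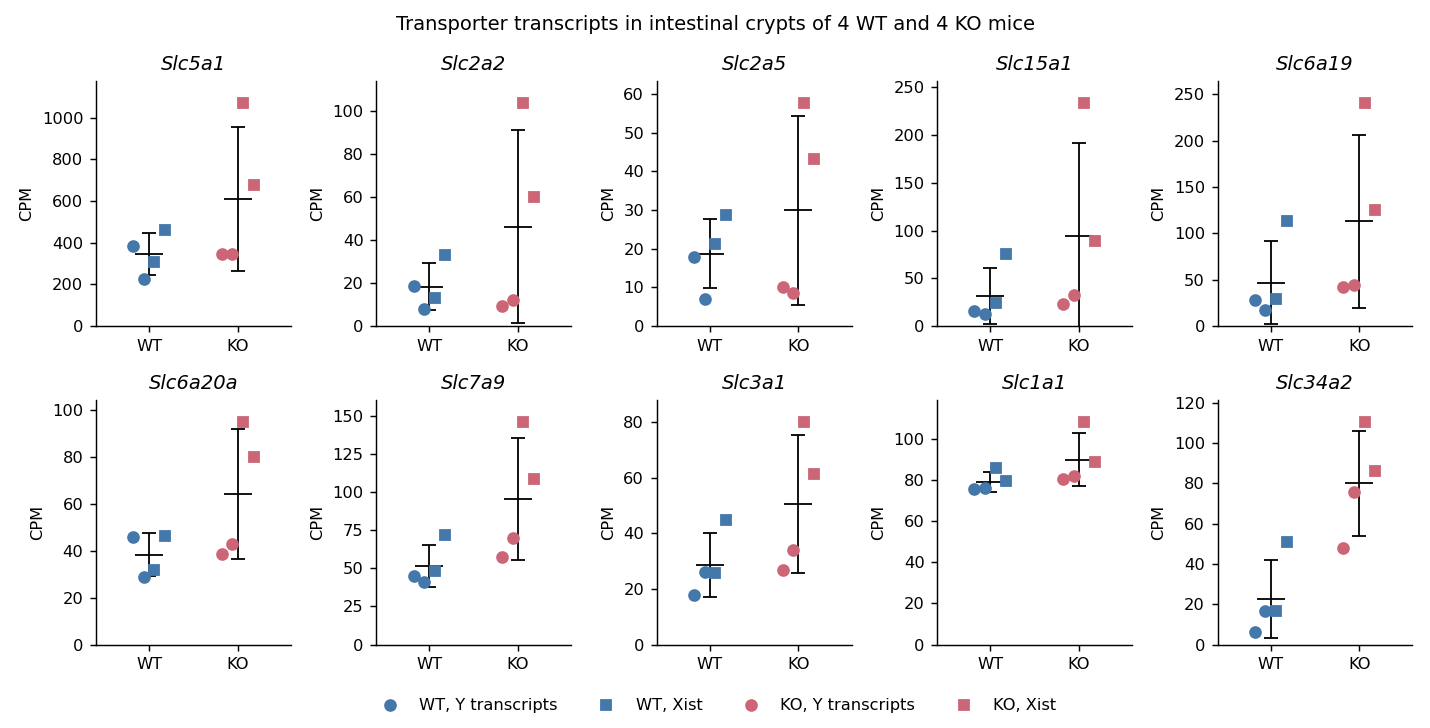
CPM of each transporter in each mouse, on linear axes from 0. Circles are mice with Y transcripts (replicates 1 and 2), squares mice with Xist (replicates 3 and 4), ordered by replicate number within a genotype, and bars give the mean and SD of 4 mice, cut at 0. KO replicate 3 is the highest mouse in all 10 panels.

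Taking the 10 genes as a list, the fitted log2 fold change was above 0 in all of them, with a median of 0.86, while the median of all 16109 genes was -0.02. At the unadjusted threshold of 0.05, 3 transporters were higher in KO (Slc34a2, Slc7a9 and Slc6a20a) and none was lower, where 5.33% of all genes tested were higher by the same rule. After Benjamini-Hochberg adjustment over all genes none of the 10 passed, and of all genes 0.00621% did, which is Mex3a alone. DESeq2 also called 3 of the 10 as higher at the unadjusted threshold, where it called 6.1% of all genes higher, and none after adjustment, where 93 of all genes passed. In the blocked fit, 8 transporters were higher at the same threshold, all but Slc2a2 and Slc2a5, where 7.14% of all genes were. In no transporter did all KO mice lie above all WT mice, which held for 2.17% of all genes. The 10 genes are not independent of each other, since they were measured in the same mice and varied together.

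**Figure D3:**
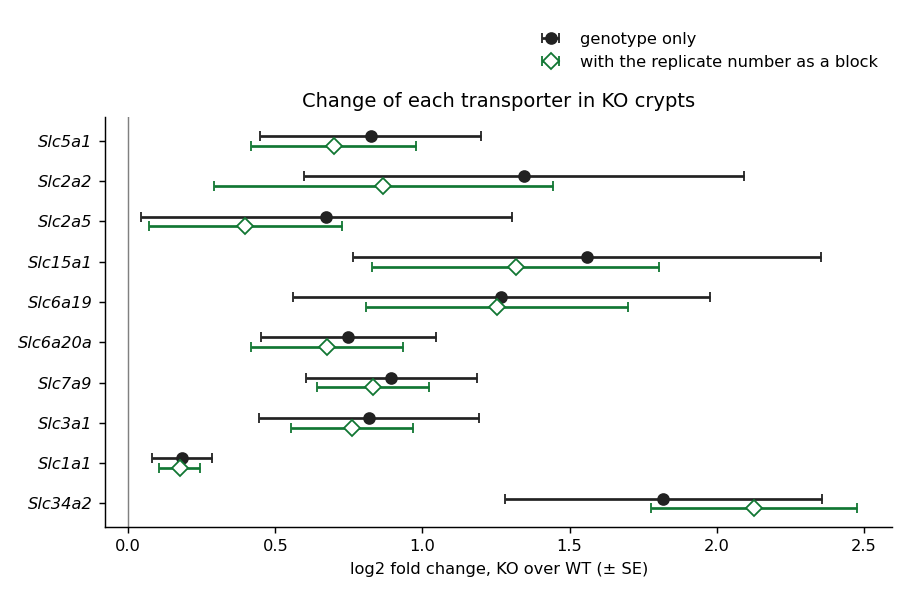
Log2 fold change of KO over WT for each transporter, with bars of 1 standard error. Filled circles come from the fit with genotype alone, open diamonds from the blocked fit, which adds the replicate number. All values are above 0, Slc34a2 is the largest in both fits, and the block narrows the error of every gene.

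The mice followed nearly the same order in each transporter. KO replicate 3 was the highest of the 8 mice in 10 of 10 genes. Without it, the log2 fold change was 0.41 for Slc5a1, 0.14 for Slc2a5, 0.50 for Slc6a20a, 0.62 for Slc7a9, 0.51 for Slc3a1, 0.08 for Slc1a1 and 1.62 for Slc34a2, beside the values already given for the other 3 genes. WT replicate 4 was the highest WT mouse in 9 genes, all but Slc1a1, and KO replicate 1 was the lowest KO mouse in 9, all but Slc2a5. The lowest of the 8 mice was WT replicate 2 in 7 genes and WT replicate 1 in 3. Against the WT mouse of the same number, KO was higher in 4 of 4 pairs for Slc15a1, Slc6a19, Slc7a9, Slc3a1, Slc1a1 and Slc34a2. It was higher in 3 of 4 pairs for Slc5a1, Slc2a2, Slc2a5 and Slc6a20a, with replicate 1 as the exception each time. In pair 3 the KO to WT ratio ranged from 1.26 for Slc1a1 to 9.67 for Slc15a1. The order of pairs was different in Slc34a2, with ratios of 7.65, 4.50, 6.68 and 1.69 in pairs 1 to 4.

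The difference between genotypes was larger in the mice with Xist than in the mice with Y transcripts in 9 of the 10 genes. The interaction term of edgeR was 1.03 on the log2 scale for Slc6a20a, 2.13 for Slc2a2 and 1.43 for Slc2a5, each with an unadjusted p between 0.0181 and 0.0336 and an adjusted p of 0.974. That unadjusted threshold of 0.05 was reached by 3.82% of all genes, and no gene passed adjustment. For Slc34a2 the term was -0.88 (adjusted p = 0.974). The median log2 fold change of the 10 was 1.16 in the mice with Xist and 0.33 in the mice with Y transcripts, where 8 of 10 were above 0. With KO replicates 3 and 4 left out, which sets KO mice with Y transcripts against WT mice of both kinds, none of the transporters stayed under that threshold and the median log2 fold change was 0.020, although Slc34a2 still had 1.44 (unadjusted p = 0.0575).

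Markers of enterocytes moved with the transporters. All 14 enterocyte markers had a positive log2 fold change (median 0.76), and 8 passed the unadjusted threshold of 0.05, among them Apoa1 (1.78, an apolipoprotein), Anpep (1.40, a brush border peptidase), Krt20 (1.05) and Vil1 (0.59, villin). Their summed level was 4290 to 8152 CPM in WT and 5787 to 17248 CPM in KO, with KO replicate 3 the highest and WT replicate 2 the lowest mouse, as in most of the transporters. None of the 14 was at 0. In the blocked fit 10 of the 14 were higher. Of the 9 stem and cycling crypt genes, 3 were lower in KO at that threshold (Smoc2, Olfm4 and Lgr5). Sox9 was added in the blocked fit. By the same rules 491 of the 16109 genes tested were lower, and 665 in the blocked fit. The sum of the list was 5300 to 6250 CPM in WT and 4219 to 5135 CPM in KO. Most of this sum was Olfm4, at 3895 CPM in WT and 3070 in KO. The cycling genes Mki67, Top2a and Pcna had log2 fold changes of -0.10, -0.04 and -0.02, none past the threshold. In bulk RNA, more cells of a type and more RNA per cell cannot be told apart. The part of the enterocyte markers in the transporter values was examined only through the ratio given next.

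When each transporter was divided by the summed CPM of the 14 enterocyte markers in the same mouse, the genotypes separated in Slc34a2, which had overlapped before the division. In parts per 1000 of the marker sum it had 1.19, 3.91, 2.90 and 6.23 CPM in WT replicates 1 to 4 and 8.24, 10.3, 6.41 and 7.49 in KO replicates 1 to 4. All KO mice lay above all WT mice, although KO replicate 3 and WT replicate 4 nearly touched. The KO mean was 2.28-fold the WT mean, and 1.87- to 3.04-fold with any single mouse left out. Full separation upward in this ratio was found in 0.118% of all genes tested, against 2.17% in CPM. The marker sum itself tended to be higher in KO, so a gene with unchanged CPM tends to fall in this ratio. The 0.118% is therefore not an even background for an upward separation. The other 9 transporters overlapped, with KO to WT ratios from 0.687 for Slc1a1 to 1.53 for Slc15a1. Slc5a1 (0.965), Slc7a9 (1.06) and Slc3a1 (0.987) were close to 1. Without WT replicate 4, Slc6a19 was also fully higher (1.99) and Slc1a1 fully lower (0.622), although the log2 fold change of Slc1a1 in that fit was 0.18. The ratio was added after the data had been seen and has no p.

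**Figure D4:**
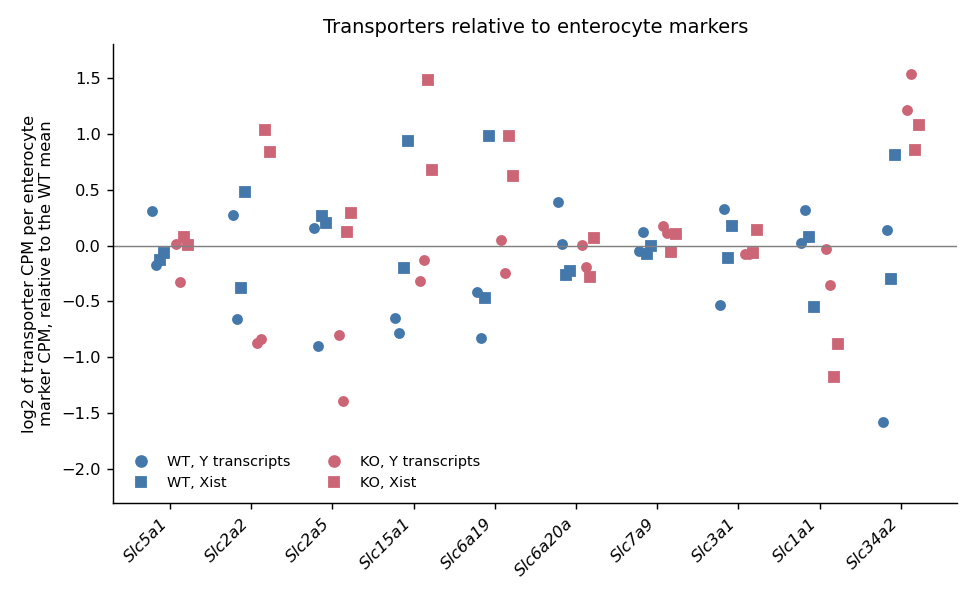
Transporter CPM per summed CPM of 14 enterocyte markers in each mouse, as log2 relative to the WT mean of that gene. Circles are mice with Y transcripts and squares mice with Xist. The 4 KO mice lie above the 4 WT mice only in Slc34a2.

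Markers of the ileum also moved with Slc34a2. Of the 6 ileal genes, 5 had an unadjusted p under 0.05 and were higher in KO (median log2 fold change of the list 1.58), including Slc51a (1.10) and Slc51b (1.51), the chains of the basolateral bile acid carrier, Fabp6 (1.34), the ileal bile acid-binding protein, and Fgf15 (2.06), the hormone that bile acids induce there. All 6 were higher in the blocked fit. The summed ileal level was 97.7 to 509 CPM in WT and 473 to 1081 CPM in KO. Fabp6 was the most abundant of the 6, with 178 ± 114 CPM in WT (SD, n = 4). WT replicate 1 was lowest and WT replicate 4 highest of the WT mice in both the ileal sum and Slc34a2, but WT replicates 2 and 3 had like levels of Slc34a2 and ileal sums of 401 and 261 CPM. Among KO mice the ileal sum was highest in replicate 4 (1081 CPM against 977 in replicate 3), and Slc34a2 was highest in replicate 3. Of 7 markers of the proximal intestine none was higher at that threshold, and the transcription factor Onecut2 was lower (-0.66), joined in the blocked fit by Gata4 (-0.26). The median of this list was -0.26, but its members went both ways: the lactase gene Lct (1.34) and the retinol-binding gene Rbp2 (0.73) had positive values that did not pass. Its summed level overlapped, at 388 to 692 CPM in WT and 408 to 1123 CPM in KO. The part of the ileal markers in the Slc34a2 value was not tested.

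Carriers of the same families outside the 10 were counted by the same rule, by which 5.33% of all genes were higher. Of 13 other sugar carriers tested of 15 listed, 2 were higher at an unadjusted p under 0.05 and none lower (median log2 fold change 0.46). They were Slc2a9 (0.80), a urate and hexose carrier, and Slc5a11 (1.24), a sodium-coupled inositol carrier. In the blocked fit Slc5a11 was no longer under the threshold and Slc2a3, a glucose carrier of low level here, was, so that the count was again 2. Of 24 other amino acid and peptide carriers tested of 26, 2 were higher and none lower (median 0.14). One of these was Slc7a7 (0.83, from 47.0 ± 13.8 to 83.8 ± 28.5 CPM, SD, n = 4 each), the basolateral exchanger that passes on basic amino acids taken up by Slc7a9, and the other was Slc43a2 (1.28), a basolateral carrier of large neutral amino acids. In the blocked fit, 4 were higher and 3 lower, so this list did not move in a single direction. Of all 16109 genes tested, 7.14% were higher and 665 genes lower in that fit. None of 4 other phosphate carriers tested of 5 had an unadjusted p under 0.05, and their median was 0.14. Slc20a1 and Slc20a2, the widespread sodium-phosphate carriers, had log2 fold changes of 0.12 and -0.09.

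Of the proteins that hold carriers in place at the brush border, the scaffolds Pdzk1 and Slc9a3r1 were both higher at that threshold. Pdzk1 went from 7.92 ± 5.84 to 28.8 ± 23.1 CPM (SD, n = 4 each), with a log2 fold change of 1.86 (adjusted p = 0.518, edgeR). Slc9a3r1 went from 197 ± 74.4 to 330 ± 136 CPM (SD, n = 4 each), with a log2 fold change of 0.75 (adjusted p = 0.579, edgeR). The values of both overlapped between the genotypes. Rsc1a1, also on this list, had no counts.

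Of 12 transcription factors of enterocytes, 1 was higher at an unadjusted p under 0.05, Maf (1.10, from 50.8 ± 21.1 to 109 ± 56.9 CPM, SD, n = 4 each), and the median of the list was -0.01. In the blocked fit 2 were higher (Maf and Klf4) and 1 was lower (Gata4). Hnf4a (-0.04) and Cdx2 (0.09) had values near 0. Of 8 genes of sugar metabolism, G6pc, the final enzyme of glucose release (from 1.75 ± 0.509 to 4.96 ± 2.76 CPM, SD, n = 4 each), and Pklr (0.49), a pyruvate kinase, were higher at that threshold, and the ketohexokinase Khk (0.25) was not. The blocked fit called 3 of this list higher. Markers of Paneth cells had a median of -0.67 with none past the threshold in the fit on genotype alone, and in the blocked fit Defa24 was lower. Those of tuft cells had a median of -0.50 with none past it, and in the blocked fit Dclk1 was lower. Villus tip markers had a median of 0.25 with none past it in either fit. Goblet markers had a median of 0.31, with Zg16 and Fcgbp higher and Spink4 lower, while the blocked fit called 4 higher, with Tff3 and Clca1 added, and none lower. Enteroendocrine markers had a median of -0.17 with Sct higher, and in the blocked fit that call was lost and Gip was lower. Immune markers had a median of 0.84, with Cd3e and Cd8a higher of 5 and Ptprc added in the blocked fit, and a sum of 14.4 to 27.4 CPM in WT and 21.5 to 45.9 in KO. Stromal and blood markers had a median of 0.01, with Hba-a1 lower in both fits.

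**Figure D5:**
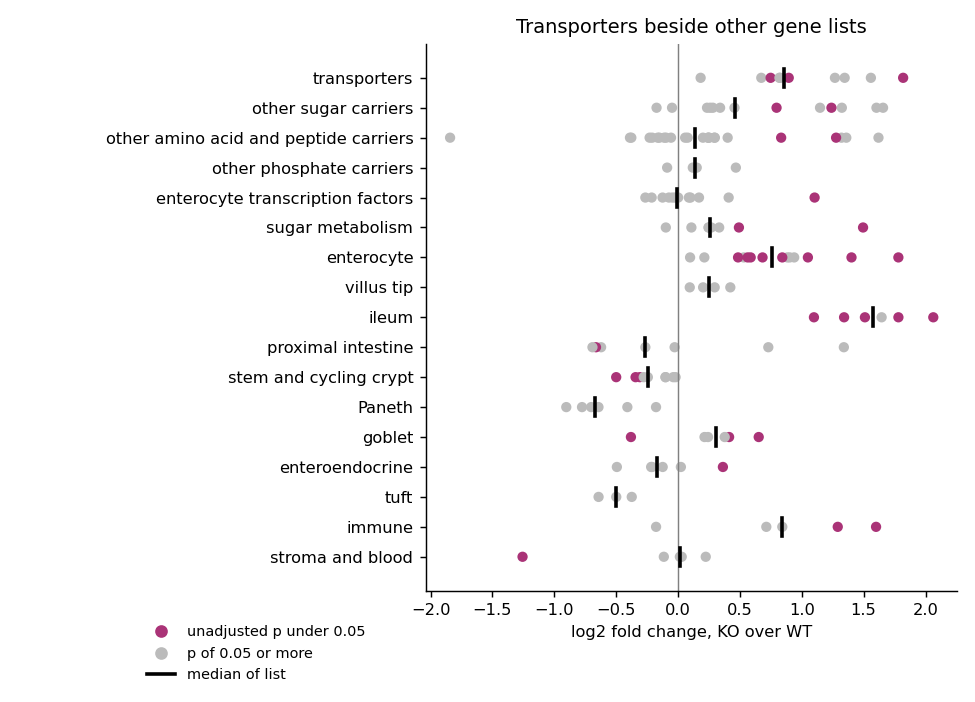
Log2 fold change of KO over WT for each tested gene of each list, with a black line at the median of the list. Dark points have an unadjusted p under 0.05 from edgeR. The transporters, enterocyte and ileum lists lie to the right of 0, and the transcription factors centre on 0. The colon list, with 1 gene tested, and the carrier scaffolds are left out.

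The genes most like the transporters were sought by the mean absolute difference of log2 CPM centred on the gene's mean over the 8 mice, among 9502 protein-coding genes. Slc34a2 was nearest to Slc51b (0.231), and its nearest fellow transporter, Slc6a19, was much farther (0.701). Slc15a1 was nearest to Slc13a2 (0.164), a sodium-coupled carrier of dicarboxylates. Slc6a19 and Slc15a1 were each other's nearest among the 10 (0.191). Slc2a2 was nearest to the apolipoprotein Apoc3 (0.283) and Slc2a5 to the fatty acid-binding protein Fabp1 (0.249), and this pair was again mutually nearest among the 10 (0.331). For Slc5a1 the nearest gene was Mfsd4b2 (0.115) and for Slc6a20a Cndp1 (0.129). Slc7a9 was nearest to the brush border bundling gene Pls1 (0.0910), Slc3a1 to the triglyceride synthesis gene Dgat2 (0.0842) and Slc1a1 to the secretory GTPase Sar1b (0.0356). Genes that vary little are near to others by this measure, as Slc1a1 is.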

How the data were processed

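RNA of intestinal crypts from 4 WT and 4 KO mice was sequenced, and samples were grouped by their labels. Raw counts of reads on each gene and FPKM values were deposited by the authors. The submitters' processing notes name CASAVA, HISAT2 2.0.5 and featureCounts 1.5.0-p3, and the strand setting is not given in the sources used here. The deposited group means (a normalized signal), log2 fold changes and p-value columns are the authors' own comparison and were not used. Gene coordinates are those of GRCm38, with exons from GENCODE M21.

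Counts were filtered (filterByExpr, minimum count 10), TMM-normalized and tested with edgeR 4.0.16 (quasi-likelihood, genotype only) in R 4.3.3, with Benjamini-Hochberg adjustment over 16109 genes and a threshold of 0.05. The unadjusted threshold of 0.05 follows the study's own rule. Exact permutation tests used all 70 assignments of the mice. Over the 10 transporters their two-sided p ran from 0.0571 (Slc34a2) to 0.686 (Slc2a5). CPM used TMM library sizes. DESeq2 1.42.0 and limma 3.58.1 (log2(FPKM + 1) and log2(FPKM + 0.1)) were alternatives. Depth was 20324184 to 30654105 counts per mouse. On counts simulated for 16109 genes, edgeR recovered 57.0% of genes changed 2-fold and 87.0% of those changed 4-fold. Recovery was not tested for the 10 transporters themselves, which varied together between mice.

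The same replicate numbers occur in both genotypes and controls are littermates, but no source says that a number marks a litter. Deviations of same-numbered mice correlated at 0.129 to 0.501 in all 4 pairs (0.0904 to 0.474 over autosomal genes), so the number was treated as pairing the mice, and the blocked fit is given where it changes a call. That rests partly on shared Xist or Y transcripts. No 2 libraries of a genotype were alike within sampling noise. Separate mice are the replicates.

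Genes named are the 10 transporters, Mex3a, Ddx3y, Xist, some genes of each list and, for 9 transporters, the nearest gene. Some genes and a motif that belong to these lists are not reported here. Prepl, Gm47171, Slc6a20b and some list genes of known role were named after their values were seen. The transporters and lists were chosen with earlier results of these data known.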

Additional observations from a re-analysis of the deposited data

Results flagged for a closer look

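Of 20 groups of 4 mice (10 transporters in each genotype), the highest or lowest mouse stood apart from the rest by Dixon's ratio in 1, and chance alone gives about 1 in 20. This was Slc6a19 in WT, where replicate 4 had 113 CPM and a ratio of 0.875 of the gap to the range. The other WT mice had 17.1 to 29.2 CPM. The same mouse was the highest WT mouse in 9 of the 10 transporters and had the highest enterocyte marker sum in WT (8152 CPM). Without it, the log2 fold change of Slc6a19 was 2.19 (adjusted p = 0.355, edgeR) in place of 1.27, and without KO replicate 3 it was 0.59.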

How the results depend on the processing

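In 21 alternatives, 4 of them added after seeing the data, no transporter passed adjustment (smallest adjusted p 0.104, DESeq2), so the calls below are unadjusted. The count of transporters with an unadjusted p under 0.05 was 3, was 2 with limma on FPKM under either pseudocount (without Slc6a20a), and became 8 with no filter on low counts (4.2% of all genes higher by the same rule), 8 with the replicate number as a block (7.14%), 7 with a covariate for Xist or Y transcripts (7.26%) and 2 to 7 with 1 mouse left out (7 without WT replicate 4, where 6.41% of all genes were higher, and 7 without replicate 1 or replicate 2 of KO, where 7.94% and 5.52% were). Among the added subsets the count was 8 in mice with Xist (8.31%), 5 without WT replicate 4 and KO replicate 3 together (4.44%), 4 in mice with Y transcripts (2.78%) and 0 without KO replicates 3 and 4 (2.14%). The median log2 fold change (0.86) moved to 0.020 without KO replicates 3 and 4, a fit that sets KO mice with Y transcripts alone against WT mice of both kinds. It was 0.33 in mice with Y transcripts, with 8 of 10 positive, 1.16 in mice with Xist, and 0.55 to 1.11 with 1 mouse left out. Directions reversed for Slc2a2 (-0.30 in mice with Y transcripts, -0.77 without KO replicates 3 and 4), Slc2a5 (-0.40 and -0.99), and, without KO replicates 3 and 4, Slc15a1 (-0.21) and Slc6a19 (-0.12). Slc34a2 and Slc7a9 kept an unadjusted p under 0.05 in 20 of 21 alternatives, the exception being the fit without KO replicates 3 and 4. Apart from the subset and block fits, the cause of these changes was not tested.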
